A study of Homo sapiens with 18 samples.

Results

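Interferon-stimulated and RNA-sensing genes were followed in OVCAR3, an established ovarian cancer cell line, after knockdown of the long noncoding RNA XIST and after hypoxia. The set holds 39 genes, listed by name from general knowledge of the interferon response and matched by symbol to the deposited count table. The list was chosen with earlier results of these data known. All 39 were found among its 28277 genes. In this pathway, RNA sensors such as MDA5 and LGP2 recognise viral or misplaced double-stranded RNA, and type I interferons are then made and bind their receptor. STAT2 and IRF9 take part in the signal that follows, in a complex that binds the interferon-stimulated response element (ISRE) in the promoters of its target genes. The targets include RNA-binding IFIT proteins, oligoadenylate synthetases (OAS), the kinase PKR, the GTPases MX1 and MX2, the ubiquitin-like modifier ISG15 and membrane proteins that block virus entry or release. Tumour cells can express a part of this program without infection.

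All cells carried dCas9-KRAB, a catalytically inactive Cas9 joined to a KRAB repressor domain and introduced with a lentivirus, together with a second lentivirus for the sgRNA. The control cells, sgControl in the sample names and sgCtl here, had a guide against the Gal4 promoter, and the sgXIST7 and sgXIST9 cells had guides against the XIST promoter. The cells were clonal lines selected with blasticidin and puromycin. Each genotype was kept in DMEM with serum, either without treatment (normoxia) or for 24 h at 1% oxygen (hypoxia), and total RNA was sequenced from 3 libraries of each of the 6 groups. The study calls the replicates biological, but whether those of a genotype came from 1 clone or several is not stated in the sources used here. P-values therefore measure the spread between these libraries, and the effect of a guide and the character of a clone cannot be told apart.

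Over the 18 libraries, total counts ranged from 11794375 to 24906936 with a median of 17629434, and 3 counts corresponded to 0.13 to 0.266 CPM (counts scaled to the size of the library). XIST, the target of the guides, had 4900, 11209 and 4213 counts in the sgCtl libraries in normoxia, 5, 4 and 1 in sgXIST7 and 650, 1009 and 898 in sgXIST9. Hypoxia libraries had 1974, 5014 and 1589 counts in sgCtl, 0, 2 and 3 in sgXIST7 and 357, 472 and 510 in sgXIST9. Of 8 genes known to be induced by low oxygen, 6 rose with hypoxia in sgCtl, 7 in sgXIST7 and 7 in sgXIST9. Of 9 markers named for OVCAR3, EPCAM, KRT18, KRT8 and PAX8 were present in every library, whereas WT1, MUC16, KRT7 and KRT19 were at or near 0 CPM. KRT8 was higher in normoxia in sgXIST7 (1.92 ± 0.20 on the log2 scale) and sgXIST9 (1.89 ± 0.20) than in sgCtl. ESR1 had 0 counts in all sgCtl libraries, and 5, 9 and 6 in sgXIST7 and 53, 68 and 70 in sgXIST9 in normoxia. The presence of 4 of 9 markers thus does not settle the label of the line, and its identity was not tested further. Among 8 immune cell markers, 2 exceeded 3 counts in any library and 3 were at 0 throughout, and their summed level was between 0 and 0.992 CPM. Among 5 endothelial markers, 3 exceeded 3 counts in any library, with a summed level between 0 and 0.893 CPM.

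Letters of the ISRE (GAAA, any 2 bases, GAAA, on either strand) were found in the promoter windows of 19 of the 30 members with an entry in the RefSeq table (GRCh38.p14), a share of 63.3%. The windows run from 250 bases before to 50 bases after the gene start. Over all 27305 windows of that length in the table, 996 held these letters, a share of 3.65%. Letters of the gamma-activated site (TTC, any 3 bases, GAA) were in 7 of 30 members (23.3%) and in 2152 of 27305 windows (7.88%). The members are known interferon targets, so these shares describe the set and are not a test of it.

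The upstream sequences of 10 members are printed 5′ to 3′ on the gene's strand. These members were called in the same direction in more than 1 comparison and hold ISRE letters upstream of the start. Their windows, from RefSeq GRCh38.p14, are BST2 (chr19:17405631-17405800, minus strand), IFITM1 (chr11:313870-314039, plus strand), IFITM3 (chr11:320861-321030, minus strand), ISG20 (chr15:88638846-88639015, plus strand), OAS3 (chr12:112938304-112938473, plus strand), IFIT3 (chr10:89327827-89327996, plus strand), IFI6 (chr1:27672193-27672362, minus strand), IFI44 (chr1:78649619-78649788, plus strand), IFI44L (chr1:78620278-78620447, plus strand) and SAMD9 (chr7:93118024-93118149, minus strand). Capitals mark the ISRE letters in either orientation.
BST2: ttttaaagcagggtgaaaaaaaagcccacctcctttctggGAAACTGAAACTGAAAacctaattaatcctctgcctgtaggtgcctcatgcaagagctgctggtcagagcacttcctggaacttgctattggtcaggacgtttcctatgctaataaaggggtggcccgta
IFITM1: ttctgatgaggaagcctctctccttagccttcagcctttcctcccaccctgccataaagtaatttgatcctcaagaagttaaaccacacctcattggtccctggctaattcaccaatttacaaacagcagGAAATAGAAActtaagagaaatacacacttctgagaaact
IFITM3: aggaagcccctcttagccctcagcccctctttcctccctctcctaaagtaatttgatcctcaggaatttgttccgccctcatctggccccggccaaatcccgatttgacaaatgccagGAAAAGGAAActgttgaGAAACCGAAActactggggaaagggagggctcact
ISG20: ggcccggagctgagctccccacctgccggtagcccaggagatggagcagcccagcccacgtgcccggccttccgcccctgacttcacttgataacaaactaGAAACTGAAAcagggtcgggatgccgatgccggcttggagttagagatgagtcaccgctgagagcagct
OAS3: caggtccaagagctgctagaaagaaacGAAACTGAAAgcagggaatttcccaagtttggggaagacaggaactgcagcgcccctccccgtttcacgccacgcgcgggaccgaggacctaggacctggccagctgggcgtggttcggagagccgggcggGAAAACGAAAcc
IFIT3: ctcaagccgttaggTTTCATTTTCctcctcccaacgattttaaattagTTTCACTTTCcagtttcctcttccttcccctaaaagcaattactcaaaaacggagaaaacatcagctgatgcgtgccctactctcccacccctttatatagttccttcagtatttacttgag
IFI6: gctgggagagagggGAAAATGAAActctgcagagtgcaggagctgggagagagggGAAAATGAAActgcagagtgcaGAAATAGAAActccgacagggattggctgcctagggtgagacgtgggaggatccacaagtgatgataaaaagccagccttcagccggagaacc
IFI44: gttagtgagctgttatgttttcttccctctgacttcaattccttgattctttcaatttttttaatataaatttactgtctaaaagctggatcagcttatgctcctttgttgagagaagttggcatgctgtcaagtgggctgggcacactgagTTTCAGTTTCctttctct
IFI44L: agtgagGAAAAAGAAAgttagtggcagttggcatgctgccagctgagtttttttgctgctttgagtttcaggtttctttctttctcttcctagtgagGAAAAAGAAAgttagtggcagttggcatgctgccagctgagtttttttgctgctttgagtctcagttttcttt
SAMD9: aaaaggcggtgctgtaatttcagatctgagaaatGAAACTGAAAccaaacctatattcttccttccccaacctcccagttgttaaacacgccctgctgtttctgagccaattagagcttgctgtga
In BST2 the 2 matches overlap by 4 letters, so that the capitals run together, and in IFI6 there are 3 separate matches. SAMD9 is printed shorter because bases that the count table lists as exon were left out. The further match of MX1 lies 12 bases inside the transcript, and IFITM1 has a further match that spans its start. STAT2, RSAD2, CMPK2, SAMD9L, HERC6, PARP9 and XAF1 held neither set of letters in this window, which says only that the letters are absent there. Of these, STAT2, RSAD2, CMPK2 and SAMD9L were also called in the same direction in more than 1 comparison. So were IFITM2, OAS2 and DHX58, which had no window, and IFI35, whose window held no ISRE letters. The same holds for MX1 and EIF2AK2, whose only ISRE match lies inside the transcript or across the start. The printed genes are thus not all of the members called repeatedly.

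The members spanned a wide range of levels, compared between genes as counts scaled by exon length and library size (RPKM). In sgCtl in normoxia, BST2 was at 127.1 ± 16.7 RPKM (SD, n = 3), IFITM3 at 85.3 ± 4.4, ISG15 at 63.7 ± 9.03, IFI6 at 21.9 ± 2.73 and EIF2AK2 at 17.8 ± 1.05. At the other end, SAMD9L was at 0.566 ± 0.102, IFI44 at 0.372 ± 0.115, SAMD9 at 0.214 ± 0.0473 and IFI44L at 0.101 ± 0.0369 RPKM. Of the 39 members, 35 passed the filter on low counts and were tested. The other 4 were TRIM22, with at most 8 counts in a library, IFI27 with at most 12, MX2 with at most 2 and IRF7 with at most 1. IRF7, the factor that amplifies type I interferon production, had 0 counts in 17 of the 18 libraries, but its exons and those of IFI27 are also listed on alternate contigs. Of the 50-base windows of IRF7, 3.27% occurred once in the genome with these contigs and 100% without them, and for IFI27 the shares were 0% and 100%. Reads placed at several sites may thus have gone uncounted in both genes, and the effect of this on their counts was not tested. USP18 had 34.6% of such windows once, so its values carry the same limit.

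Calls required an adjusted p-value from edgeR below 0.01, corrected by Benjamini-Hochberg over the 14938 genes tested, and a log2 fold change beyond 1 in size, and "rose" and "fell" are used for called genes only. In normoxia, 4 of the 35 tested members were called higher and 1 lower in sgXIST7 against sgCtl, where 4.67% and 3.09% of all genes tested were. In sgXIST9 against sgCtl, 8 were higher and 2 lower, against 3.93% and 3.77% of all genes. In hypoxia, 5 were higher and 1 lower in sgXIST7 (7.83% and 6.19% of all genes), and 12 were higher and 1 lower in sgXIST9 (6.14% and 3.39%). These comparisons share the sgCtl libraries of each oxygen level. The median log2 fold change of the members was 0.34 in sgXIST7 and 0.25 in sgXIST9 in normoxia, and −0.07 and 0.74 in hypoxia. The medians of all genes were between −0.02 and −0.01 in each.

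**Figure D1:**
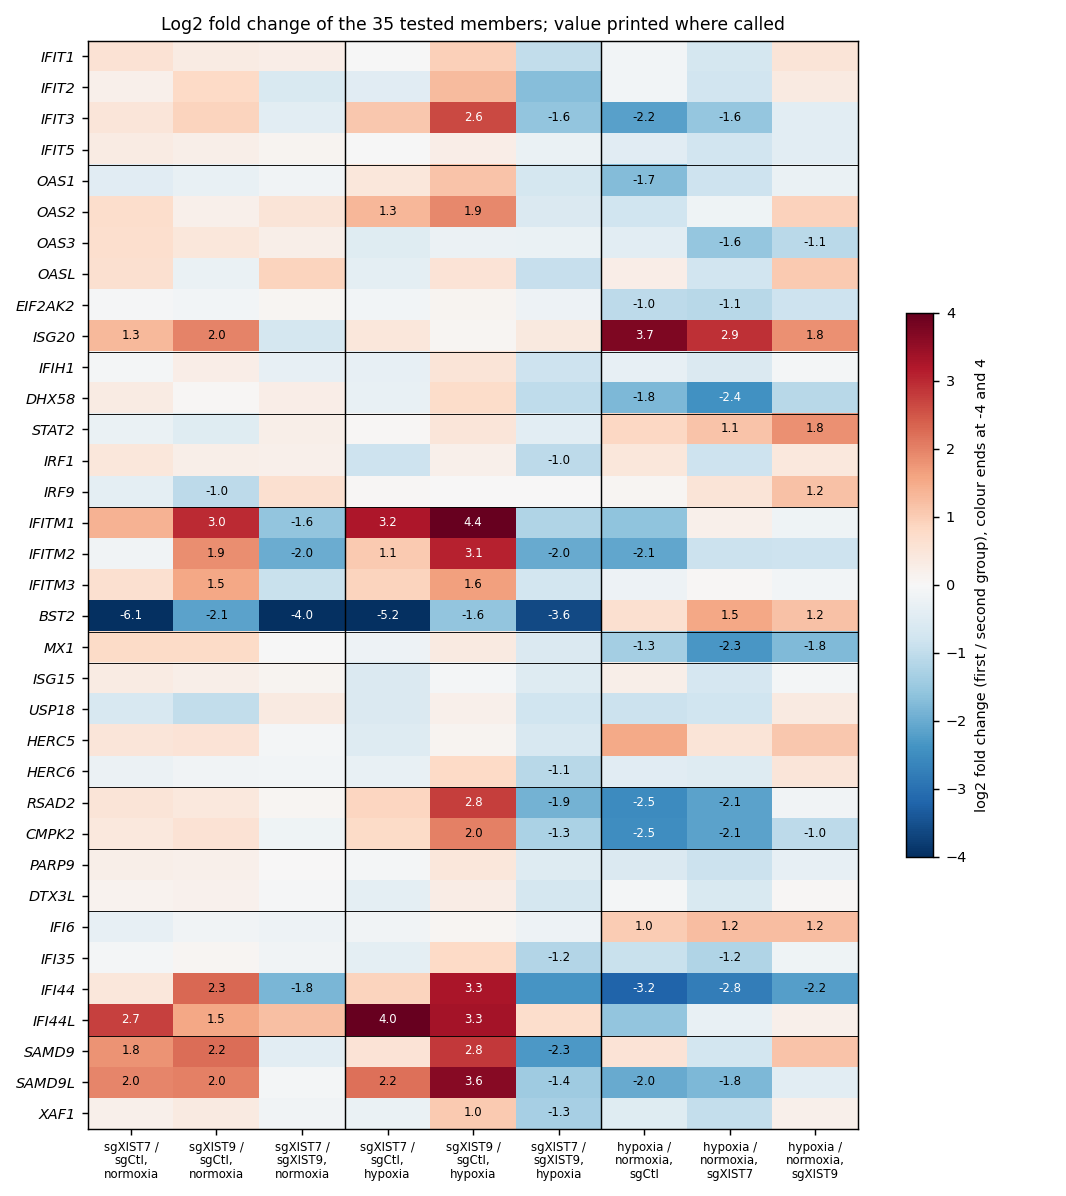
Log2 fold changes of the 35 tested members (rows, grouped by role) in 9 comparisons of 2 groups (columns), with red for higher and blue for lower in the group named first and the number printed where a member was called. BST2 was lower in both knockdown clones at both oxygen levels, from −6.12 to −1.58, whereas IFI44L and SAMD9L were higher in all 4 of these comparisons.

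The sgXIST7 and sgXIST9 clones differed from each other as well. In normoxia, 0 of 35 members were called higher and 4 lower in sgXIST7 than in sgXIST9 (2.09% and 1.31% of all genes). In hypoxia, 0 were called higher and 11 lower (2.06% and 2.4% of all genes), and the median of the members was −0.83 against −0.03 for all genes. DESeq2 also called 0 higher in both. At an unadjusted p under 0.05, 2 members were higher and 6 lower in normoxia, and 2 were higher and 25 lower in hypoxia. IFI44L was higher in sgXIST7 than in sgXIST9 in normoxia by 1.20 (edgeR, adjusted p = 0.018). Without replicate 3 of each group it was called (1.59, adjusted p = 0.0039), and that fit called 1 member higher and 2 lower in normoxia.

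In response to hypoxia, 2 members rose and 10 fell in sgCtl, where 11.3% and 8.49% of all genes did. In sgXIST7, 4 rose and 10 fell (15.1% and 12.2% of all genes), and in sgXIST9 5 rose and 4 fell (14.7% and 8.58%). The median of the members was −0.45 in sgCtl, −0.77 in sgXIST7 and −0.07 in sgXIST9, against 0.02, 0.01 and 0.09 for all genes. With upper-quartile scaling the median in sgXIST9 was 0.02 and that of all genes 0.17. The test of the difference in response between a knockdown clone and sgCtl called 1 member for sgXIST7 and 1 for sgXIST9, against 1.52% and 1.01% of all genes in either direction. Over the 9 comparisons of 2 groups, 25 of the 35 members were called in at least 1 and 10 in none, where 45.5% of all genes tested were called in at least 1.

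**Figure D2:**
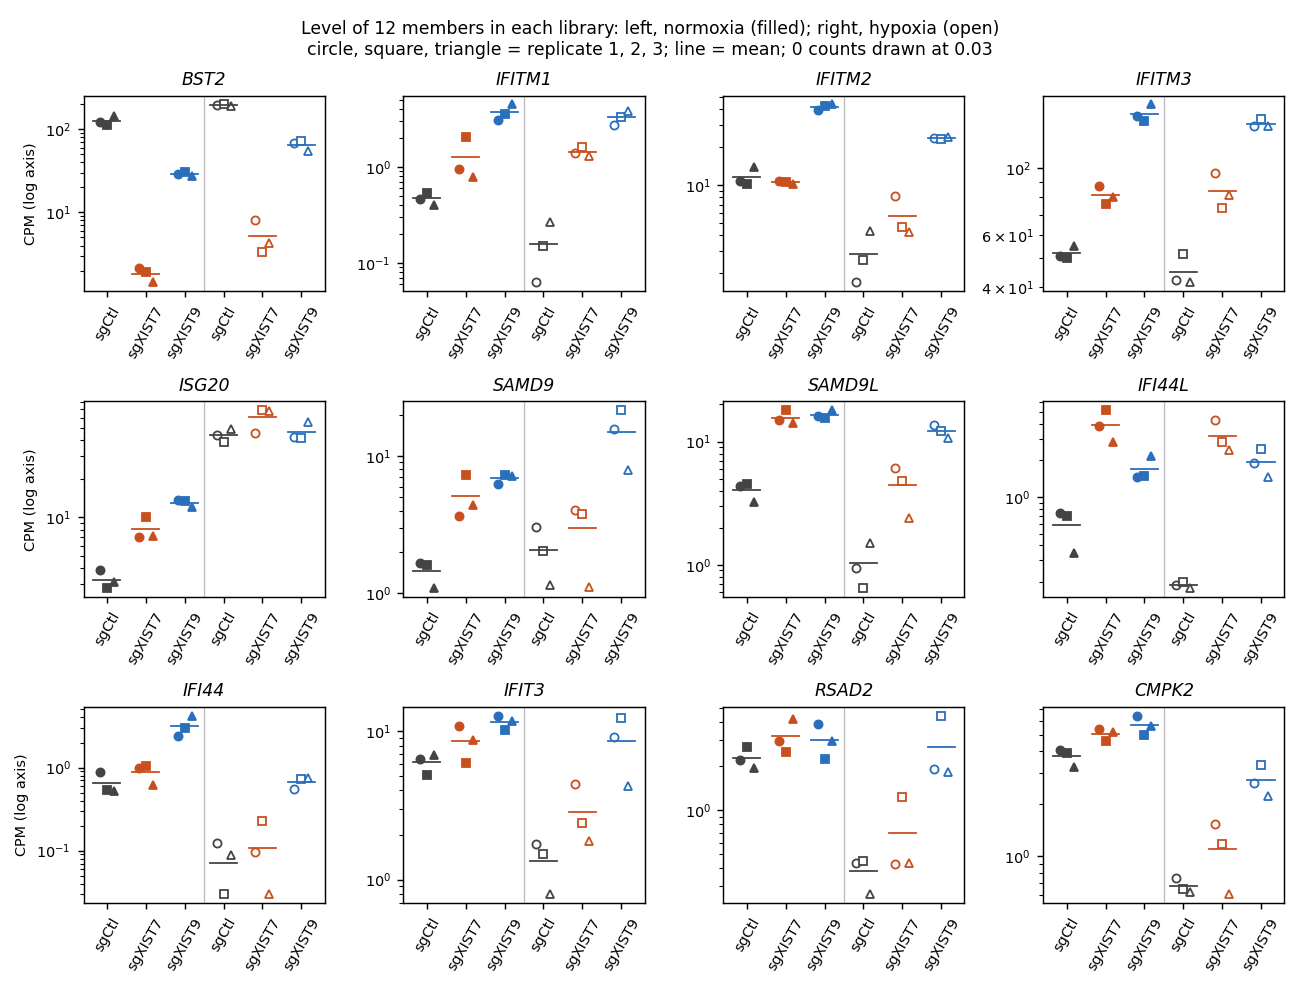
CPM of 12 members in each library on a log axis, with normoxia as filled and hypoxia as open symbols, a circle, square or triangle for replicate 1, 2 or 3 and a line for the mean of 3 libraries (a library with 0 counts is drawn at the foot of the axis). BST2 separates the 3 genotypes at both oxygen levels, IFITM2 is highest in sgXIST9, and ISG20 is higher in hypoxia in each genotype.

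Among the membrane restriction factors, BST2 (tetherin), which holds budding virus particles at the cell surface, showed the largest difference of any member. BST2 had 124, 113 and 146 CPM in the sgCtl libraries in normoxia, 2.12, 1.94 and 1.44 CPM in sgXIST7 and 28.9, 30.6 and 27.3 CPM in sgXIST9. The order was sgCtl, sgXIST9 and sgXIST7 without overlap. The log2 fold change against sgCtl was −6.12 ± 0.27 (SE, adjusted p = 3.8e-11) in sgXIST7 and −2.14 ± 0.21 (adjusted p = 8.1e-07) in sgXIST9, and between the clones it was −3.98 ± 0.25 (adjusted p = 9.9e-09). In hypoxia BST2 had 198, 199 and 192 CPM in sgCtl, 8.12, 3.35 and 4.32 in sgXIST7 and 68.0, 73.3 and 55.6 in sgXIST9, again in the same order without overlap. The differences from sgCtl were −5.20 ± 0.25 (adjusted p = 1.3e-10) and −1.58 ± 0.20 (adjusted p = 1.6e-05). Within each genotype every hypoxia library was above every normoxia library. BST2 rose by 1.54 ± 0.27 in sgXIST7 (adjusted p = 9.9e-05) and 1.18 ± 0.20 in sgXIST9 (adjusted p = 0.00012), and the value in sgCtl was 0.62 (adjusted p = 0.015). In bulk RNA, fewer cells that express a gene and less of its RNA per cell cannot be told apart.

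The IFITM genes, a cluster on chromosome 11 whose proteins hinder the fusion of viruses with the cell membrane, went the other way in sgXIST9. IFITM3, at 51.0, 50.1 and 55.2 CPM in sgCtl in normoxia, was at 87.6, 76.2 and 80.2 in sgXIST7 and at 149, 143 and 163 in sgXIST9. In hypoxia it was at 42.4, 51.6 and 41.6 CPM in sgCtl, 96.8, 73.5 and 81.8 in sgXIST7 and 138, 146 and 138 in sgXIST9. The 3 genotypes did not overlap at either oxygen level. IFITM3 rose in sgXIST9 by 1.54 ± 0.12 in normoxia (adjusted p = 3.1e-08) and 1.64 ± 0.12 in hypoxia (adjusted p = 1.6e-08). In sgXIST7 the values were 0.64 ± 0.11 (adjusted p = 0.00044) and 0.89 ± 0.11 (adjusted p = 1.2e-05), below the fold required for a call.

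IFITM2 had 10.8, 10.2 and 13.8 CPM in sgCtl, 10.8, 10.7 and 10.3 in sgXIST7 and 39.9, 42.4 and 43.7 in sgXIST9 in normoxia. The sgXIST9 libraries stood above both other groups, which overlapped. Its hypoxia values were 1.69, 2.53 and 4.34 CPM in sgCtl, 8.27, 4.67 and 4.23 in sgXIST7 and 23.7, 23.1 and 24.1 in sgXIST9, with sgCtl and sgXIST7 overlapping in a single library. IFITM2 rose in sgXIST9 by 1.85 ± 0.24 (adjusted p = 1.9e-05) in normoxia and 3.09 ± 0.27 (adjusted p = 2.1e-07) in hypoxia, and fell with hypoxia in sgCtl by 2.07 (adjusted p = 8.9e-06). The difference between sgXIST7 and sgXIST9 was −1.99 ± 0.24 (adjusted p = 2e-05) in normoxia and −2.03 ± 0.25 (adjusted p = 2.3e-05) in hypoxia. The call in sgXIST7 in hypoxia (1.06 ± 0.27, adjusted p = 0.0053) was lost without sgCtl replicate 1, sgCtl replicate 2 or sgXIST7 replicate 1, where the value was 0.79, 0.99 and 0.69. It was also lost with the groups compared fitted alone (1.03, adjusted p = 0.1).

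IFITM1 was a gene of few reads, with 7, 7 and 7 counts in sgCtl in normoxia, 22, 37 and 18 in sgXIST7 and 70, 68 and 77 in sgXIST9. In hypoxia there were 1, 3 and 3 counts in sgCtl, at the detection limit of 3 counts, 29, 36 and 15 in sgXIST7 and 60, 74 and 61 in sgXIST9. As CPM the 3 genotypes did not overlap at either oxygen level. IFITM1 rose in sgXIST9 in normoxia by 2.98 ± 0.37 (adjusted p = 1.3e-05), and the value in sgXIST7 was 1.40 (adjusted p = 0.015). In hypoxia the summed counts, scaled to library size, gave a ratio of 9.93 in sgXIST7 (95% counting interval 4.6 to 25.5, adjusted p = 4.8e-05) and 22.1 in sgXIST9 (10.5 to 55.7, adjusted p = 1.2e-06), intervals that cover counting error only. The lower level in sgXIST7 than in sgXIST9 in normoxia (−1.58 ± 0.32, adjusted p = 0.0035) was not called without sgXIST7 replicate 1 or 3 or sgXIST9 replicate 2 or 3, with adjusted p-values from 0.013 to 0.027. Nor was it called with the groups compared fitted alone (adjusted p = 0.015). IFITM1, IFITM2 and IFITM3 are similar in sequence, and 88.6%, 86.7% and 82.5% of their 50-base windows occurred once in the genome.

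Of the 3 transcription factors tested, IRF9 alone was called in a knockdown clone against sgCtl, and it was lower. IRF9, the DNA-binding partner of STAT2, had 11, 11.7 and 12.3 CPM in sgCtl in normoxia, 7.61, 10.1 and 8.85 in sgXIST7 and 4.55, 5.42 and 7.12 in sgXIST9. In hypoxia it had 12.2, 10.2 and 15.1 CPM, 12.1, 14.9 and 11.2 and 11.8, 14.1 and 12.2 in the same order, and the 3 genotypes overlapped. IRF9 fell in sgXIST9 in normoxia by 1.04 (SE 0.19, adjusted p = 0.00066) and rose there with hypoxia by 1.16 ± 0.19 (adjusted p = 6.9e-05). The first value was −0.997 without sgCtl replicate 3 and −0.90 without sgXIST9 replicate 1, short of the fold for a call. The exons of IRF9 are listed also on a contig outside the main chromosomes. Of its 50-base windows, 100% occurred once in the genome searched, with alternate contigs included.

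STAT2 had 23.9, 26.1 and 25.3 CPM in sgCtl, 19.7, 23.6 and 20.0 in sgXIST7 and 17.1, 19.1 and 17.8 in sgXIST9 in normoxia. In hypoxia it had 51.2, 44.6 and 38.5, 57.9, 47.5 and 34.4, and 73.2, 70.6 and 45.8 CPM, above all normoxia libraries of the same genotype. STAT2 rose with hypoxia by 1.15 ± 0.18 in sgXIST7 (adjusted p = 5e-05) and 1.81 ± 0.19 in sgXIST9 (adjusted p = 5.5e-07), and the value in sgCtl was 0.83 (adjusted p = 0.0013). Without sgXIST7 hypoxia replicate 1 the value in sgXIST7 was 0.97. The difference in response between sgXIST9 and sgCtl, 0.98 ± 0.26, had an adjusted p of 0.038 and was not called.

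IRF1, a factor induced by interferon gamma and by other stress signals, had 24.7, 22.5 and 26.3 CPM in sgCtl, 39, 28.0 and 34.5 in sgXIST7 and 30.9, 26.4 and 30.0 in sgXIST9 in normoxia. In hypoxia it had 38.1, 34.3 and 27.3 CPM in sgCtl, 22.4, 20.4 and 13.5 in sgXIST7 and 37.1, 47.3 and 31.5 in sgXIST9, so that sgXIST7 lay below both other genotypes. The level in sgXIST7 was above sgCtl without overlap in normoxia and below it without overlap in hypoxia, with values of 0.47 (adjusted p = 0.092) and −0.82 (adjusted p = 0.0027). The difference in response to hypoxia was −1.28 ± 0.27 (adjusted p = 0.009). It was called without sgCtl hypoxia replicate 3, sgXIST7 normoxia replicate 2 or sgXIST7 hypoxia replicate 1, and lost the call without any other of the 12 libraries compared, with values from −1.34 to −1.10 and adjusted p-values from 0.019 to 0.029. The lower level than in sgXIST9 in hypoxia (−1.03 ± 0.19, adjusted p = 0.0012) was −0.85 without sgXIST7 replicate 3 and −0.86 without sgXIST9 replicate 2. DESeq2 gave −0.998, just short of the fold for a call.

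Among the RNA sensors, IFIH1 (MDA5) was not called in any comparison, with group means between 9.91 ± 2.78 CPM (SD) in sgXIST7 in hypoxia and 18.6 ± 0.0166 CPM in sgXIST9 in normoxia. DHX58 encodes LGP2, a helicase that modulates MDA5. DHX58 had 5.43, 5.72 and 7.46 CPM in sgCtl, 5.75, 9.94 and 7.80 in sgXIST7 and 6.52, 6.38 and 6.48 in sgXIST9 in normoxia. In hypoxia there were 1.62, 1.69 and 2.13, 1.96, 1.45 and 0.863, and 2.60, 4.90 and 1.39 CPM. Every hypoxia library was below every normoxia library of its genotype. DHX58 fell with hypoxia by 1.79 in sgCtl (SE 0.36, adjusted p = 0.00062) and by 2.41 in sgXIST7 (SE 0.36, adjusted p = 2.5e-05). In sgXIST9 the value was −1.10 (adjusted p = 0.011), called by DESeq2 (−1.14, adjusted p = 0.003) and with the replicate block (−1.15, adjusted p = 0.0078).

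Of the OAS family, PKR and ISG20, ISG20 alone was called between genotypes in normoxia, and PKR, OAS1 and OAS3 fell with hypoxia in some genotypes. EIF2AK2 encodes PKR, the kinase that stops translation when it binds such RNA. EIF2AK2 had 180, 195 and 174 CPM in sgCtl, 179, 190 and 167 in sgXIST7 and 173, 166 and 169 in sgXIST9 in normoxia, and 87.9, 93.3 and 84.8, 82.0, 92.1 and 72.7, and 93.2, 92.3 and 99.2 CPM in hypoxia. The genotypes lay close together at each oxygen level. EIF2AK2 fell with hypoxia by 1.04 in sgCtl (SE 0.10, adjusted p = 2.2e-07) and 1.12 in sgXIST7 (SE 0.10, adjusted p = 4.9e-08). In sgXIST9 it was not called, but every hypoxia library was below every normoxia library there too.

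OAS1, OAS2 and OAS3, neighbours on chromosome 12, make the oligoadenylates that activate RNase L. OAS3 had 47.8, 55.1 and 41.3 CPM in sgCtl, 67.8, 89.9 and 71.4 in sgXIST7 and 63.7, 66.3 and 66.6 in sgXIST9 in normoxia, and 38.4, 41.8 and 27.6, 27.6, 26.4 and 24.0, and 29.3, 39.7 and 23.8 CPM in hypoxia. It fell with hypoxia by 1.55 in sgXIST7 (SE 0.18, adjusted p = 1.6e-06) and by 1.08 in sgXIST9 (SE 0.18, adjusted p = 7.9e-05), where the value was −0.92 without hypoxia replicate 3. OAS1 had 7.31, 6.5 and 6.95 CPM in sgCtl in normoxia and 2.81, 1.99 and 1.42 CPM in hypoxia, without overlap. OAS1 fell there by 1.72 (SE 0.43, adjusted p = 0.0033), but without normoxia replicate 1 or hypoxia replicate 2 or 3 the adjusted p was between 0.01 and 0.014. In both knockdown clones OAS1 overlapped between oxygen levels. OAS2 had 5.25, 4.02 and 3.37 CPM in sgCtl in hypoxia, 15.2, 12.1 and 4.58 in sgXIST7 and 17.2, 20.2 and 10.9 in sgXIST9, all 3 above sgCtl in sgXIST9 and overlapping in sgXIST7. OAS2 rose by 1.93 ± 0.34 (adjusted p = 0.00039) in sgXIST9 and by 1.34 ± 0.34 (adjusted p = 0.0049) in sgXIST7. The sgXIST7 call was lost without sgCtl replicate 2 or 3 or sgXIST7 replicate 1 or 2, with values from 1.00 to 1.30. It was also lost with the groups compared fitted alone (1.34, adjusted p = 0.05). OASL, a relative without synthetase activity, was called in no comparison, with group means between 1.70 ± 0.164 and 3.50 ± 2.44 CPM.

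ISG20, an exoribonuclease that degrades single-stranded RNA, rose with hypoxia in each genotype. ISG20 had 3.89, 2.78 and 3.10 CPM in sgCtl, 7.05, 10.1 and 7.10 in sgXIST7 and 13.5, 13.4 and 11.9 in sgXIST9 in normoxia. In hypoxia it had 44.0, 38.7 and 48.9, 45.8, 68.3 and 67.1, and 42.3, 41.7 and 55.0 CPM. The genotypes were separate in normoxia and overlapped in hypoxia. Against sgCtl in normoxia ISG20 rose by 1.30 ± 0.21 in sgXIST7 (adjusted p = 0.00019) and 1.99 ± 0.21 in sgXIST9 (adjusted p = 1.6e-06). The rise with hypoxia was 3.74 ± 0.21 in sgCtl (adjusted p = 1e-09), 2.91 ± 0.19 in sgXIST7 (adjusted p = 2.6e-09) and 1.84 ± 0.18 in sgXIST9 (adjusted p = 3.1e-07). The difference in this response was −1.91 ± 0.27 between sgXIST9 and sgCtl (adjusted p = 0.00098), which was called in every omission of a single library, and −0.83 ± 0.27 between sgXIST7 and sgCtl (adjusted p = 0.061).

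**Figure D3:**
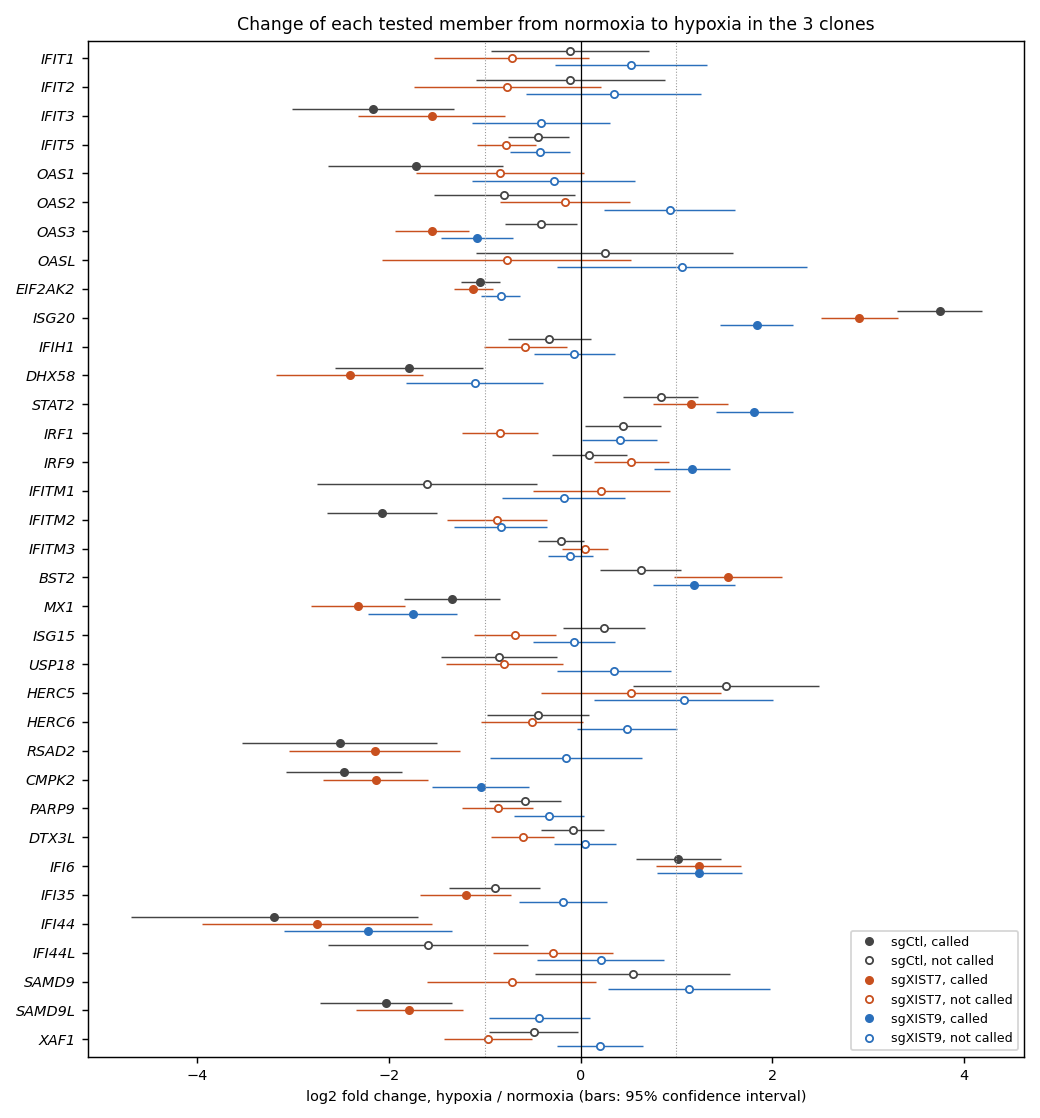
Log2 fold change of hypoxia against normoxia for each of the 35 tested members (rows) in sgCtl, sgXIST7 and sgXIST9, with points for the estimate, filled where called, and bars for the 95% confidence interval. ISG20 changed least in sgXIST9 (1.84, against 3.74 in sgCtl), IRF1 lies on opposite sides of 0 in sgXIST7 and sgCtl (−0.84 and 0.44), and MX1, CMPK2 and IFI44 fell in all 3 genotypes.

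MX1, a GTPase that traps viral nucleocapsids, fell with hypoxia in all 3 genotypes. It had 2.75, 2.4 and 2.35 CPM in sgCtl, 3.81, 4.39 and 4.49 in sgXIST7 and 3.79, 4.73 and 4.32 in sgXIST9 in normoxia. The hypoxia values of 0.938, 1.09 and 0.886, 0.956, 0.589 and 1.04, and 1.19, 1.41 and 1.20 CPM were all below the normoxia values. The fall was by 1.34 in sgCtl (SE 0.24, adjusted p = 0.00017), 2.32 in sgXIST7 (SE 0.23, adjusted p = 2.8e-07) and 1.75 in sgXIST9 (SE 0.22, adjusted p = 4.5e-06).

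RSAD2 (viperin), which makes a chain-terminating nucleotide, and CMPK2, a nucleotide kinase, are neighbours on chromosome 2 and were lower in sgCtl in hypoxia. CMPK2 had 4.09, 3.94 and 3.27 CPM in sgCtl, 5.36, 4.61 and 5.18 in sgXIST7 and 6.38, 4.99 and 5.61 in sgXIST9 in normoxia, and 0.750, 0.645 and 0.620, 1.53, 1.18 and 0.604, and 2.64, 3.36 and 2.21 CPM in hypoxia. Only the sgXIST9 libraries stayed above 2 CPM in hypoxia. CMPK2 fell by 2.47 in sgCtl (SE 0.29, adjusted p = 2.5e-06), 2.14 in sgXIST7 (SE 0.26, adjusted p = 2.4e-06) and 1.04 in sgXIST9 (SE 0.24, adjusted p = 0.0014), the last of these by 0.95 without normoxia replicate 1 and 0.91 without hypoxia replicate 3. In hypoxia it was higher in sgXIST9 than in sgCtl by 2.02 ± 0.29 (adjusted p = 4.5e-05).

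RSAD2 had 2.21, 2.71 and 1.95 CPM in sgCtl, 2.98, 2.5 and 4.18 in sgXIST7 and 3.88, 2.23 and 2.98 in sgXIST9 in normoxia. In hypoxia it had 0.438, 0.447 and 0.266, 0.430, 1.22 and 0.432, and 1.91, 4.40 and 1.83 CPM, with sgXIST9 above both other genotypes. RSAD2 fell by 2.51 in sgCtl (SE 0.48, adjusted p = 0.00037) and 2.15 in sgXIST7 (SE 0.42, adjusted p = 0.00035), and was higher in sgXIST9 than in sgCtl in hypoxia by 2.77 ± 0.47 (adjusted p = 0.00027). The last of these calls was lost with the groups compared fitted alone (adjusted p = 0.011). IFIT3, which binds IFIT1 on foreign RNA, had 6.51, 5.11 and 6.95 CPM in sgCtl, 10.8, 6.17 and 8.71 in sgXIST7 and 12.7, 10.2 and 11.8 in sgXIST9 in normoxia, and 1.75, 1.49 and 0.797, 4.39, 2.4 and 1.81, and 9.21, 12.4 and 4.29 CPM in hypoxia. In hypoxia the sgXIST9 libraries were above sgCtl, and sgXIST9 and sgXIST7 overlapped. IFIT3 fell by 2.16 in sgCtl (SE 0.40, adjusted p = 0.00027) and 1.55 in sgXIST7 (SE 0.36, adjusted p = 0.0015), the latter with an adjusted p of 0.011 without hypoxia replicate 2. It was higher in sgXIST9 than in sgCtl in hypoxia by 2.65 ± 0.40 (adjusted p = 7.9e-05), a call also lost with the groups compared fitted alone (adjusted p = 0.011). The other IFIT genes of the cluster on chromosome 10 were called in no comparison, with group means of 11.6 to 23.0 CPM for IFIT1, 1.93 to 6.55 for IFIT2 and 27.7 to 47.5 for IFIT5. In hypoxia IFIT2 differed between sgXIST7 and sgXIST9 by −1.71 (adjusted p = 0.016), which DESeq2 (adjusted p = 0.0029) and the replicate block (adjusted p = 0.0094) called.

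Of ISG15, HERC5, HERC6 and USP18, HERC6 alone was called in any comparison of 2 groups. Of all genes tested, 45.5% were called in at least 1 of the 9. ISG15 itself, a modifier joined to newly made proteins, had 43.5, 33.9 and 44.1 CPM in sgCtl, 56.9, 44.8 and 52.0 in sgXIST7 and 52.1, 42.9 and 48.6 in sgXIST9 in normoxia. The sgXIST7 libraries lay just above sgCtl, and sgXIST9 overlapped with both. The difference from sgCtl was 0.34 in sgXIST7 (95% confidence interval −0.09 to 0.77) and 0.24 in sgXIST9 (−0.19 to 0.67), and in hypoxia −0.59 (−1.02 to −0.16) and −0.07 (−0.50 to 0.35). HERC5, the main ISG15 ligase, USP18, which removes ISG15, and the partners PARP9 and DTX3L were called in no comparison of 2 groups. HERC5 came close with hypoxia in sgCtl, from 3.82, 3.63 and 4.19 CPM to 11.1, 16.8 and 5.14 CPM (1.51 ± 0.46, adjusted p = 0.011), and was called there by DESeq2 (1.53, adjusted p = 0.0022), with median-of-ratios scaling (adjusted p = 0.0097) and with the replicate block (1.36, adjusted p = 0.0057). HERC5 ranged in its group means from 3.88 ± 0.282 to 12 ± 6.13 CPM, USP18 from 5.46 ± 2.71 to 15 ± 0.88, PARP9 from 18.1 ± 5.7 to 33.2 ± 3.74 and DTX3L from 45.0 ± 12.4 to 73.0 ± 4.47. PARP9 and DTX3L overlap by 447 bases on opposite strands, and the strand setting of the counting is not stated. HERC6, a relative of HERC5, had 20.9, 14.3 and 6.65 CPM in sgXIST7 and 31.9, 33.8 and 25.1 in sgXIST9 in hypoxia, a difference of −1.10 ± 0.25 (adjusted p = 0.0063). The HERC6 call was lost without sgXIST7 replicate 2 or 3 or sgXIST9 replicate 1 or 2, with values from −1.10 to −0.78.

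Among the IFI genes, IFI6, a mitochondrial and endoplasmic reticulum protein that opposes cell death, rose with hypoxia in each genotype. IFI6 had 19.4, 15.7 and 19.9 CPM in sgCtl, 16.6, 11.4 and 15.5 in sgXIST7 and 17.4, 15 and 17.2 in sgXIST9 in normoxia, and 45.2, 40.7 and 25.3, 36.4, 34.1 and 31.8, and 40.1, 48.2 and 28.4 CPM in hypoxia. No hypoxia library overlapped with normoxia. The rise was 1.02 ± 0.21 in sgCtl (adjusted p = 0.0007), 1.23 ± 0.21 in sgXIST7 (adjusted p = 9.1e-05) and 1.24 ± 0.21 in sgXIST9 (adjusted p = 0.0001). The sgCtl value was 0.92 without normoxia replicate 2, 0.86 without hypoxia replicate 1 and 0.95 without hypoxia replicate 2, short of the fold for a call. IFI35 had 16.3, 17.3 and 16.4 CPM in sgXIST7 in normoxia and 7.88, 8.47 and 5.18 in hypoxia, and fell by 1.20 (SE 0.23, adjusted p = 0.00023). In hypoxia IFI35 was at 15.6, 17.9 and 15.4 CPM in sgXIST9, a difference of −1.17 ± 0.23 in sgXIST7 against sgXIST9 (adjusted p = 0.0019), with the call lost without sgXIST7 replicate 3 or sgXIST9 replicate 2 (−0.99 and −1.09).

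IFI44 and IFI44L, neighbours on chromosome 1 that encode interferon-induced antiviral proteins, were among the members with the fewest reads. IFI44L had 11, 9 and 6 counts in sgCtl in normoxia and 3, 4 and 2 in hypoxia, or 0.738, 0.696 and 0.344 CPM and 0.188, 0.199 and 0.177 CPM. It had 3.81, 5.17 and 2.83 CPM in sgXIST7 and 1.47, 1.49 and 2.16 in sgXIST9 in normoxia, and 4.30, 2.85 and 2.42, and 1.91, 2.5 and 1.45 CPM in hypoxia. Every knockdown library was above every sgCtl library. IFI44L rose in normoxia by 2.74 ± 0.35 in sgXIST7 (adjusted p = 2.1e-05) and 1.53 ± 0.36 in sgXIST9 (adjusted p = 0.0054). In hypoxia the ratio of summed counts was 17.5 in sgXIST7 (95% counting interval 9 to 38.8, adjusted p = 1.4e-06) and 10.6 in sgXIST9 (5.39 to 23.7, adjusted p = 1.6e-05). The sgXIST9 call in normoxia was lost without any 1 of the 6 libraries, with values from 1.24 to 1.74 and adjusted p-values from 0.01 to 0.04.

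IFI44 had 13, 7 and 9 counts in sgCtl in normoxia, 23, 19 and 14 in sgXIST7 and 53, 56 and 71 in sgXIST9. In hypoxia there were 2, 0 and 1 counts in sgCtl, 2, 5 and 0 in sgXIST7 and 12, 16 and 12 in sgXIST9. IFI44 rose in sgXIST9 against sgCtl in normoxia by 2.28 ± 0.43 (adjusted p = 0.00082) and was lower in sgXIST7 than in sgXIST9 (−1.83 ± 0.40, adjusted p = 0.0063), a call lost without any 1 of those 6 libraries (from −1.59 to −2.001). It fell with hypoxia, with ratios of summed counts of 0.0987 in sgCtl (95% counting interval 0.0192 to 0.318, adjusted p = 0.0013) and 0.147 in sgXIST7 (0.0564 to 0.323, adjusted p = 0.00052), and by 2.22 in sgXIST9 (SE 0.41, adjusted p = 0.00025). In hypoxia the ratio of sgXIST9 to sgCtl was 10.6 (3.37 to 53.4, adjusted p = 0.0017). Without sgCtl hypoxia replicate 2, the library with 0 counts, its log2 fold change was 2.54 with an adjusted p of 0.013.

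SAMD9 and SAMD9L, adjacent paralogs on chromosome 7 that restrain translation and block poxvirus growth, were higher in the knockdown clones. SAMD9L had 4.36, 4.56 and 3.21 CPM in sgCtl, 15, 17.9 and 14.1 in sgXIST7 and 16.0, 15.4 and 17.9 in sgXIST9 in normoxia, and 0.938, 0.645 and 1.51, 6.12, 4.80 and 2.42, and 13.5, 12.3 and 10.7 CPM in hypoxia. Both clones lay above sgCtl at both oxygen levels, and in hypoxia sgXIST9 lay above sgXIST7. SAMD9L rose against sgCtl by 1.96 ± 0.27 in sgXIST7 (adjusted p = 3.9e-05) and 2.03 ± 0.27 in sgXIST9 (adjusted p = 2.6e-05) in normoxia, and by 2.20 ± 0.32 (adjusted p = 4.7e-05) and 3.63 ± 0.32 (adjusted p = 2e-07) in hypoxia. The sgXIST7 call in hypoxia was lost with the groups compared fitted alone (2.17, adjusted p = 0.012). With hypoxia SAMD9L fell by 2.03 in sgCtl (SE 0.33, adjusted p = 7.1e-05) and 1.78 in sgXIST7 (SE 0.26, adjusted p = 2e-05).

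SAMD9 had 1.68, 1.62 and 1.09 CPM in sgCtl, 3.67, 7.28 and 4.40 in sgXIST7 and 6.29, 7.28 and 7.12 in sgXIST9 in normoxia, and 3.06, 2.04 and 1.15, 4.06, 3.81 and 1.12, and 15.7, 21.5 and 7.95 CPM in hypoxia. Both clones were above sgCtl in normoxia, and in hypoxia sgXIST9 alone was separate from sgCtl. SAMD9 rose in normoxia by 1.80 ± 0.46 in sgXIST7 (adjusted p = 0.0081) and 2.24 ± 0.46 in sgXIST9 (adjusted p = 0.0016), and in hypoxia by 2.83 ± 0.44 in sgXIST9 (adjusted p = 0.00012). The sgXIST7 call was lost without sgCtl replicate 1, 2 or 3 or sgXIST7 replicate 2 or 3 (1.47 to 1.92, adjusted p from 0.015 to 0.05), and the sgXIST9 call in normoxia without sgCtl replicate 3 (2.06, adjusted p = 0.014). XAF1, a pro-apoptotic interferon target, had 7.25, 6.60 and 8.24 CPM in sgCtl, 8.07, 5.71 and 4.14 in sgXIST7 and 15.9, 18.2 and 11 in sgXIST9 in hypoxia. The sgXIST9 libraries were above both other genotypes. XAF1 was higher in sgXIST9 than in sgCtl by 1.04 ± 0.22 (adjusted p = 0.0016), and sgXIST7 against sgXIST9 gave −1.32 ± 0.22 (adjusted p = 0.00052). The first value was 0.96 without sgCtl replicate 2, 0.99 without sgXIST9 replicate 1 and 0.87 without sgXIST9 replicate 2. Its call was also lost with the groups compared fitted alone (1.04, adjusted p = 0.027).

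Of the 11 members lower in sgXIST7 than in sgXIST9 in hypoxia, the values of IRF1, IFITM2, HERC6, IFI35 and XAF1 are given above. SAMD9 differed by −2.29 ± 0.42 (adjusted p = 0.0013), SAMD9L by −1.43 ± 0.26 (adjusted p = 0.0012) and BST2 by −3.62 ± 0.23 (adjusted p = 1.2e-08). RSAD2 (−1.91 ± 0.43, adjusted p = 0.0052) was not called without sgXIST7 replicate 1 or 3 or sgXIST9 replicate 2 (−1.71 to −1.36). IFIT3 (−1.57 ± 0.36, adjusted p = 0.0066) was not called without sgXIST7 replicate 2 or 3 or sgXIST9 replicate 1 or 2 (−1.52 to −1.21). CMPK2 (−1.26 ± 0.26, adjusted p = 0.0033) was not called without the same libraries (−1.29 to −1.01). Of the 11 calls, 5 were kept in every omission of a single library. With the groups compared fitted alone, 2 calls were kept, those of BST2 and IFITM2. SAMD9 (adjusted p = 0.031), SAMD9L (adjusted p = 0.032) and XAF1 (adjusted p = 0.032) were then among the calls lost.

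In hypoxia the libraries numbered 3 were the lowest of their group for many members. Hypoxia replicate 3 held the lowest CPM for 21 of 35 members in sgCtl (60%), 29 in sgXIST7 (82.9%) and 27 in sgXIST9 (77.1%), where 43.2%, 38.2% and 43.4% of all genes tested had their lowest value. The summed CPM of the members was 728.6 in it against 843.3 and 805.9 in the other sgCtl libraries, 496.8 against 672.0 and 620.5 in sgXIST7, and 811.9 against 946.9 and 1060 in sgXIST9. Without replicate 3 of each group, 6 members were called in sgXIST7 and 16 in sgXIST9 against sgCtl in hypoxia, in place of 6 and 13, where 17.1% and 11.1% of all genes then tested were called. Hypoxia against normoxia then gave 15, 14 and 11 members in sgCtl, sgXIST7 and sgXIST9 in place of 12, 14 and 9, and in sgXIST9 9 of the 11 had risen. The shares of all genes were 21.5%, 25.3% and 23.2%. The tests of the difference in response gave 4 and 6 members in place of 1 and 1, and the shares of all genes went from 1.52% and 1.01% to 5.22% and 3.16%. The part of these libraries in the results beyond these counts was not tested.

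**Figure D4:**
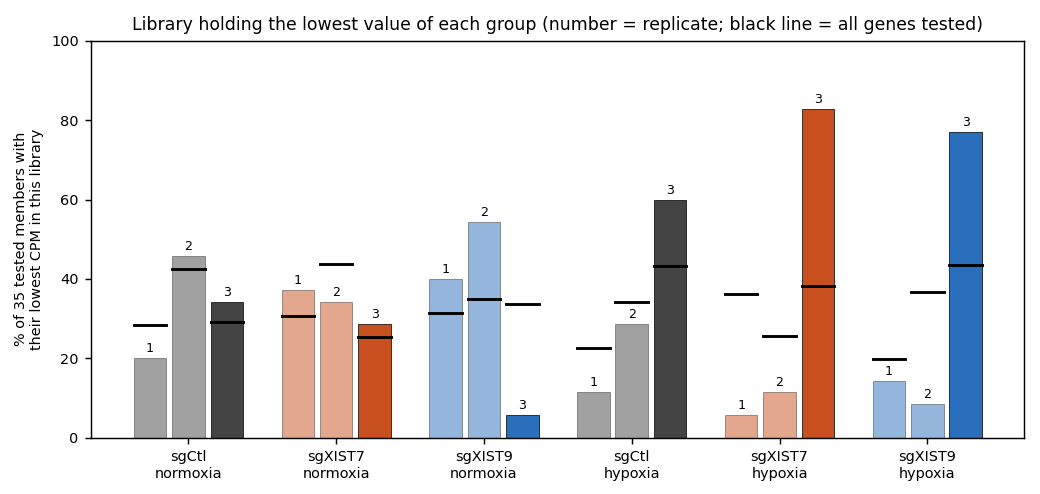
Percent of the 35 tested members that have their lowest CPM of a group in replicate 1, 2 or 3 (bars), with a black line for the percent of all genes tested. In hypoxia the bar of replicate 3 is the highest in all 3 genotypes, at 60%, 82.9% and 77.1% of members.

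The other genes of the pathway were counted from 4 further lists. Of 9 interferon genes, IFNE alone passed the filter, and IFNB1, IFNA1, IFNA2, IFNG and IFNK had 0 counts in every library. IFNE, an epithelial type I interferon, had 0, 3 and 1 counts in sgCtl, 3, 10 and 6 in sgXIST7 and 5, 4 and 1 in sgXIST9 in normoxia, and 0, 7 and 1, 53, 82 and 16, and 46, 72 and 17 counts in hypoxia. All hypoxia libraries of both knockdown clones were above sgCtl. The ratio to sgCtl in hypoxia was 16.4 in sgXIST7 (95% counting interval 8.11 to 38.7, adjusted p = 0.0005) and 13.4 in sgXIST9 (6.6 to 31.6, adjusted p = 0.0012).

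Of a list of 12 interferon receptors, JAK kinases, inhibitors and STAT3, 11 were tested, and 0 were called in either clone against sgCtl in normoxia by edgeR (1 higher and 3 lower in sgXIST7 and 5 lower in sgXIST9 at an unadjusted p under 0.05). Of all genes, 4.67% were called higher and 3.09% lower there in sgXIST7, and 3.93% and 3.77% in sgXIST9. In hypoxia, 3 of the 11 were lower in sgXIST7 than in sgCtl (6.19% of all genes). The 3 were the kinase JAK2 (−1.14 ± 0.17, adjusted p = 5.1e-05) and the inhibitors SOCS1 (−3.02 ± 0.59, adjusted p = 0.00072) and SOCS3 (−1.55 ± 0.33, adjusted p = 0.0015). With hypoxia, 1 rose in sgCtl, 3 rose and 2 fell in sgXIST7 and 2 rose in sgXIST9, where 11.3%, 15.1% and 12.2%, and 14.7% of all genes did. In sgXIST7, JAK2 fell by 1.25 (SE 0.17, adjusted p = 6.1e-06) and SOCS3 by 1.92 (SE 0.33, adjusted p = 1e-04), and the receptor chains IFNAR1 (1.07 ± 0.10, adjusted p = 1.3e-07) and IFNGR2 (1.09 ± 0.25, adjusted p = 0.0012) rose. STAT3 rose in sgXIST7 (1.17 ± 0.22, adjusted p = 0.00024) and sgXIST9 (1.18 ± 0.22, adjusted p = 0.00028), but by 0.99 and 0.82 without hypoxia replicate 3 of the same clone. SOCS1 had 11, 6 and 12 counts in sgCtl in normoxia and 47, 100 and 4 in hypoxia, a rise of 2.15 ± 0.56 (adjusted p = 0.0042) that was lost without any 1 of these libraries except hypoxia replicate 3. In sgXIST9 it had 2, 2 and 1 counts in normoxia and 15, 22 and 9 in hypoxia, a ratio of 8.97 (95% counting interval 3.58 to 28.9, adjusted p = 0.0035). The SOCS1 call in sgXIST9 was lost without normoxia replicate 1, 2 or 3 or hypoxia replicate 2. The JAK2 call between sgXIST7 and sgCtl in hypoxia was lost without sgCtl replicate 1, where the value fell just short of the fold, and the SOCS3 call without sgCtl replicate 2 (−1.27, adjusted p = 0.011).

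Of 17 further sensors and adaptors, 13 were tested, and 1 was called higher in each clone against sgCtl in normoxia (4.67% and 3.93% of all genes). It was IKBKE, a kinase that activates interferon regulatory factors, at 19.6, 19.3 and 19.1 CPM in sgCtl, 46.1, 53.8 and 51.5 in sgXIST7 and 44.0, 48.1 and 46.0 in sgXIST9. It rose by 1.38 ± 0.17 in sgXIST7 (adjusted p = 1.5e-05) and 1.25 ± 0.17 in sgXIST9 (adjusted p = 4.2e-05). In hypoxia, 2 were higher in sgXIST9 than in sgCtl (6.14% of all genes). They were IKBKE (1.26 ± 0.18, adjusted p = 4.1e-05) and LGALS3BP, a secreted glycoprotein (1.06 ± 0.15, adjusted p = 4.5e-05), which was at 0.98 and 0.90 without sgCtl replicate 1 and 2. The antiviral zinc finger protein ZC3HAV1 was the 1 gene lower in sgXIST7 than in sgCtl in hypoxia (−1.25 ± 0.12, adjusted p = 5.6e-07). With hypoxia 2 rose in sgCtl, 1 rose and 1 fell in sgXIST7 and 2 rose in sgXIST9, with the shares of all genes as above. The RNA sensor DDX58 (RIG-I) rose by 1.55 ± 0.29 in sgCtl (adjusted p = 0.00033) and 2.08 ± 0.30 in sgXIST9 (adjusted p = 1.7e-05). TICAM1, the adaptor of TLR3, rose in sgCtl (1.45 ± 0.25, adjusted p = 0.00013), and the kinase TBK1 in sgXIST7 (1.35 ± 0.12, adjusted p = 1.2e-07). IKBKE fell in sgXIST7 by 1.11 (SE 0.17, adjusted p = 3.4e-05), and by 0.97 without hypoxia replicate 3. TLR3 rose in sgXIST9 (1.02 ± 0.25, adjusted p = 0.0027), and was not called without normoxia replicate 2 or 3 or hypoxia replicate 2 (0.76 to 0.99) or by DESeq2 (0.99).

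Of 30 further interferon-stimulated genes, 25 were tested. Against sgCtl, 3 were called higher in sgXIST7 and 2 in sgXIST9 in normoxia, where 4.67% and 3.93% of all genes were, and in hypoxia 3 were lower in sgXIST7 (6.19%) and 3 higher in sgXIST9 (6.14%). With hypoxia 4 rose and 2 fell in sgCtl (11.3% and 8.49% of all genes), 2 rose and 4 fell in sgXIST7 (15.1% and 12.2%), and 3 rose and 2 fell in sgXIST9 (14.7% and 8.58%). CXCL11, a chemokine induced by interferon gamma, had 4, 4 and 4 counts in sgCtl in normoxia and 142, 100 and 90 in hypoxia, a rise of 4.73 ± 0.41 (adjusted p = 1.1e-07). The ratios in sgXIST7 and sgXIST9 were 84.5 (95% counting interval 42.6 to 197, adjusted p = 4.5e-09) and 43.5 (21.9 to 102, adjusted p = 3.1e-08). GBP3, an interferon-induced GTPase, was higher in sgXIST7 (1.16 ± 0.16, adjusted p = 3e-05) and sgXIST9 (1.41 ± 0.16, adjusted p = 3.3e-06) in normoxia and fell with hypoxia in each genotype, by 1.07, 1.64 and 1.16. APOL1 rose in sgXIST7 in normoxia (1.6 ± 0.31, adjusted p = 0.0011) and in sgXIST9 in hypoxia (1.73 ± 0.33, adjusted p = 0.00064), and GBP2 in sgXIST9 in normoxia (1.54 ± 0.30, adjusted p = 0.001). The fall of GBP3 in sgCtl was by 0.95 without hypoxia replicate 2.

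RTP4, a Golgi chaperone induced by interferon, had 2, 0 and 1 counts in sgCtl, 9, 10 and 14 in sgXIST7 and 13, 4 and 8 in sgXIST9 in normoxia, and 0, 1 and 0, 7, 2 and 2, and 10, 12 and 6 counts in hypoxia. The ratio to sgCtl was 7.77 in sgXIST7 in normoxia (95% counting interval 2.44 to 39.6, adjusted p = 0.0064) and 22.2 in sgXIST9 in hypoxia (3.67 to 908, adjusted p = 0.0015). The first was not called by DESeq2 (adjusted p = 0.022) or without sgCtl replicate 2 or 3 or sgXIST7 replicate 2 or 3, and the second was not called without sgCtl replicate 1 (adjusted p = 0.011). In hypoxia SP110, a nuclear body protein, was lower in sgXIST7 than in sgCtl (−1.62 ± 0.33, adjusted p = 0.00099), and so was APOL2 (−1.15 ± 0.20, adjusted p = 0.00025), at −0.98 without sgCtl replicate 1. APOL2 was also the 1 gene of this list called for a difference in response, in sgXIST7 against sgCtl (−1.45 ± 0.28, adjusted p = 0.0061), and that call was lost in 9 of the 12 omissions of a single library. DDX60, a helicase related to the RNA sensors, fell with hypoxia by 1.45 in sgCtl (SE 0.28, adjusted p = 0.00046) and 1.501 in sgXIST7 (SE 0.28, adjusted p = 0.00019).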

How the data were processed

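RNA was extracted with Trizol, depleted of ribosomal RNA and made into TruSeq Stranded Total RNA libraries. The authors trimmed reads with Trimmomatic, checked them with FastQC, aligned them with HISAT2 to hg38 and tested with DESeq2, as the submitters' processing notes name, and counted reads with featureCounts, as the paper names. Versions and the strand setting are not given in the sources used here. The deposited values are the authors' counts per gene, without normalization, in 28279 lines, of which 2 broken lines with 0 counts were left out.

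The counts of all 18 libraries in 6 groups were fitted with edgeR 4.0.16 (limma 3.58.1, R 4.3.3): glmQLFit with robust estimation, glmQLFTest, TMM normalization, filterByExpr (minimum count 10, minimum total 15), a prior count of 0.125 and Benjamini-Hochberg adjustment over 14938 genes. Standard errors were derived from the fold change and its F statistic. CPM use the TMM-scaled library size, RPKM also the length given in the table. The 2 differences in response were interaction contrasts. Counting intervals (95%) and the limit of 3 counts cover counting error only. The scripts were tested on simulated data. Alternatives were DESeq2 1.42.0, other scalings, filters and thresholds, fits of the groups compared alone, a replicate block, and each library left out.

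The members, the pathway and marker lists and the tests were chosen with earlier results of these data known. All members could be named. In 1 pathway list, 1 gene was left out and is not reported here. Values are given for called members, and for at most 8 called genes of each pathway list, those with the largest change. The lists were written by hand and no set test was run. Promoter sequences come from the RefSeq table of GRCh38.p14, where 30 of 39 members had an entry.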

Additional observations from a re-analysis of the deposited data

Results flagged for a closer look

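The response to hypoxia differed between a knockdown clone and sgCtl for 2 members, by the test of the difference itself. The test called 1 of 35 members for each clone, where it called 1.52% of all genes for sgXIST7 and 1.01% for sgXIST9. For IRF1 the response in sgXIST7 minus that in sgCtl was −1.28 on the log2 scale (SE 0.27, adjusted p = 0.009, edgeR). The IRF1 call was lost in most omissions of a single library. It was also lost with upper-quartile scaling (−1.29, adjusted p = 0.011) and with the groups compared fitted alone (−1.28, adjusted p = 0.023). For ISG20 the response in sgXIST9 minus that in sgCtl was −1.91 (SE 0.27, adjusted p = 0.00098, edgeR).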

How the results depend on the processing

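Of the 86 calls of members over the 11 comparisons, 57 were kept under every alternative in which the member was tested, 63 in every omission of a single library, and 0 changed sign. DESeq2 lost 1 call, median-of-ratios scaling 1, upper-quartile scaling 4, no filter on low counts 1, and fitting the groups compared alone 17. The number of members called for the difference in response between sgXIST7 and sgCtl was 1 and became 3 with DESeq2, 0 with upper-quartile scaling, 2 without a filter, 0 with only the groups compared, 2 with the replicate block and 3 at an adjusted p under 0.05. It ranged from 0 to 4 with libraries left out. For sgXIST9 it was 1 and became 6 with DESeq2 and 6 at an adjusted p under 0.05, with a range of 1 to 6 with libraries left out. In hypoxia, only the groups compared gave 3 members in place of 6 for sgXIST7 against sgCtl and 2 in place of 11 for sgXIST7 against sgXIST9. Leaving out libraries gave 4 to 6 for sgXIST7 against sgCtl in hypoxia, 5 to 14 for sgXIST7 against sgXIST9 in hypoxia and 2 to 3, in place of 4, in normoxia. Among these settings, the share of all genes called was counted only for fits without every replicate 3, and not between the clones. The other shifts in the number of members can thus not be set against all genes. The cause of these shifts was not tested.

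Groups share replicate numbers in the labels. The deviations of equally numbered libraries correlated between −0.111 and 0.593 over 27 pairs, and all 3 exceeded 0.1 in 2 of 9 comparisons, sgXIST7 against sgCtl in normoxia and sgXIST9 against sgCtl in hypoxia. There the replicate block gave the same 5 and 13 members. In all it lost 1 of the 86 calls, IFI6 with hypoxia in sgCtl, at a log2 fold change of 1.00, and gained 4, IFIT2 between the clones in hypoxia (−1.72), HERC5 with hypoxia in sgCtl (1.36), DHX58 with hypoxia in sgXIST9 (−1.15) and OAS3 for the response of sgXIST7 (−1.12). Of 56 calls in the pathway lists, 38 were kept in every omission of a single library. Those lost with the groups compared fitted alone included IFNE (adjusted p = 0.023), IKBKE (adjusted p = 0.012) and APOL1 (adjusted p = 0.037), each in sgXIST9 against sgCtl in hypoxia. At these depths 3 counts in a library limit what IFI44, IFI44L and IFITM1 can show in sgCtl in hypoxia, and nothing can be said of IRF7, MX2, IFI27 and TRIM22.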

Other observations

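Not all members of a gene cluster were called alike. On chromosome 10, IFIT3 was higher in sgXIST9 than in sgCtl in hypoxia (2.65 ± 0.40, SE, adjusted p = 7.9e-05, edgeR), and its neighbours IFIT1 and IFIT2 had values of 0.96 (adjusted p = 0.07) and 1.26 (adjusted p = 0.044), with IFIT5 at 0.26 (adjusted p = 0.21). Differences between these genes were not tested, and the IFIT3 call was lost with the groups compared fitted alone (adjusted p = 0.011). On chromosome 7, SAMD9L fell with hypoxia in sgCtl by 2.03 (SE 0.33, adjusted p = 7.1e-05), and for the adjacent SAMD9 the libraries had 1.68, 1.62 and 1.09 CPM in normoxia and 3.06, 2.04 and 1.15 CPM in hypoxia.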
